A study of Rattus norvegicus with 8 samples.

Results

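The 10 genes Pecam1, Ocln, Cldn5, Tjp1, Kdr, Flt1, Tek, Vwf, Cdh5 and Heg1 mark the endothelial cells of brain capillaries or build the junctions between them. They were followed in the frontal cortex of rats on an Affymetrix array of short oligonucleotide probe sets. All probe sets that the platform's annotation table pairs with exactly 1 of these symbols were taken. This gave 15 probe sets, of 31042 that were not controls, for 9 of the 10 genes. No probe set carried the symbol Cdh5 in that table, and Cdh5 was not analysed here. Of the 15 probe sets, 10 were bright enough to be tested, at least 1 for each of the 9 genes, and 5 were dimmer.

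The animals were male rats of the outbred Sprague-Dawley strain, of about 200 g at the start, assigned at random to 1 of 2 treatments of 21 days with 20 rats in each. Olanzapine, an antipsychotic drug that blocks serotonin and dopamine receptors, was given intraperitoneally at 2 mg/kg/day, and the control group received saline. Frontal cortex of 4 rats per group was hybridised, 1 array per rat, and arrays are named here by group and animal number: saline 14, 15, 17 and 19 and olanzapine 9, 14, 18 and 19. The labels give no genetic change, no age and no drug-free interval before dissection.

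The capillaries of the brain are lined by endothelial cells that are sealed to each other by tight junctions, which with a set of transporters make up the blood-brain barrier. Claudin-5 and occludin span the membrane at these junctions, and the scaffold protein ZO-1, the product of Tjp1, ties them to actin. The vascular endothelial growth factor receptors encoded by Kdr and Flt1 and the angiopoietin receptor encoded by Tek carry growth and survival signals into the endothelial cell, and Pecam1, Vwf and Heg1 encode an adhesion molecule, a clotting glycoprotein and a receptor that helps to stabilise endothelial junctions.

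In these 8 arrays the differences of the genes had both signs. Fold values here and the log2 differences below are on the scale of intensity + 63.4, the scale of the test, which understates the change of a dim gene. Pecam1 and 1 of the 2 probe sets of Heg1 were brighter on every olanzapine array than on any saline array, by 1.30-fold and 1.29-fold, Ocln was at 1.41-fold with overlapping groups, and Kdr and Cldn5 had differences of the opposite sign, at 0.819-fold and 0.851-fold. Tjp1 and Tek differed by less than the spread between animals. None of the 10 tested probe sets passed the test adjusted over the array, in which 0% of 18625 tested probe sets passed (limma, Benjamini-Hochberg adjustment at 0.05). At an unadjusted p under 0.05, 3 of the 10 passed, all higher in olanzapine, where 8.32% of all tested probe sets did so, 4.59% higher and 3.73% lower. Since the genes were chosen with earlier results of these arrays known, among them the difference in Heg1, that share is a description only.

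A probe set was tested when its mean on the log2(intensity + 63.4) scale was above the 40th percentile, which corresponds to an intensity of 114. The depth behind a value is not given by an array, and the 4 animals per group limit its precision. In whole tissue, a lower intensity from fewer endothelial cells and one from less RNA per cell cannot be told apart. Median intensities of the arrays were 159 to 191, and saline 15 had the lowest median correlation with the other arrays, 0.953 against 0.965 to 0.970. Of 10 cortical neuron markers 8 were bright enough to be tested, while Syt1 and Tbr1 were dim. Their summed intensity as deposited, of which Snap25 made up the largest part, was 35638 to 44620 in saline and 32725 to 35275 in olanzapine. These sums depend on the scaling of bright probe sets. Once all arrays had the same distribution (quantile normalization), the log2 difference of Snap25 was -0.042 in place of -0.35. The median of the tested neuron markers was then 0.048 in place of -0.028. None of the defining endothelial genes with a probe set was listed at 0.

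The start regions of the genes are shown for 2 members whose differences had opposite signs, Heg1 and Kdr, as the sequence around the point where transcription starts. Both are 300 bases from RefSeq on the GRCr8 build, from 250 bases before to 50 bases after the gene's start, printed 5′ to 3′ along the gene. Capitals mark GGAAG on either strand (CTTCC on the other), the core of sites bound by ETS factors, a family that includes regulators of endothelial genes. The first lies at chr11:80600043-80600342 on the minus strand and the second at chr14:32571813-32572112 on the plus strand.
Heg1: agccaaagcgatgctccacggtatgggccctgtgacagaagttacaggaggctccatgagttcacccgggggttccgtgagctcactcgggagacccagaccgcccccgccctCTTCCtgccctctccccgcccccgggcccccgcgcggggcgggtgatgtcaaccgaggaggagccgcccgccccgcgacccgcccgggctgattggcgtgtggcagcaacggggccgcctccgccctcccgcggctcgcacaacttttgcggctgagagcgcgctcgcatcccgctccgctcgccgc
Kdr: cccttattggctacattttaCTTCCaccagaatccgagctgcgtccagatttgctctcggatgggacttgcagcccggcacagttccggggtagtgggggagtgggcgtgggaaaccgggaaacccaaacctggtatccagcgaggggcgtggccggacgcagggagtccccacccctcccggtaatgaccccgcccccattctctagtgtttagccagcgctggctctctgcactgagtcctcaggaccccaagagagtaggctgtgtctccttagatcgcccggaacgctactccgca
Each holds 1 match, 137 bases before the start in Heg1 and 230 bases before it in Kdr. Promoters were found in the table for 6 members, and 4 of them held the motif, against 70.1% of 33365 rat promoters of the same length. A match of this kind is a description of letters and no evidence of a bound factor.

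Heg1 encodes a transmembrane receptor that acts with the CCM protein complex at endothelial junctions, as known from zebrafish and mouse. Its brighter probe set (1373415_at) had intensities of 2216, 2310, 2612 and 2416 in saline 14, 15, 17 and 19, and of 3197, 3274, 2902 and 3031 in olanzapine 9, 14, 18 and 19. The lowest olanzapine array lay above the highest saline array, and the gap between them was larger than the SD within either group. Saline averaged 2389 ± 170 and olanzapine 3101 ± 167 (SD, n = 4 each), a log2 difference of 0.37 (SE 0.090, 95% interval 0.18 to 0.56, limma adjusted p = 0.317). Of the tested probe sets of the array, 2.4% lay wholly above saline in olanzapine and 2.07% wholly below, 4.47% together. Among the members there were 2 of 10, Heg1 and Pecam1, both above.

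A second Heg1 probe set (1391901_at) did not show this. Its intensities were 253, 325, 385 and 343 in saline and 440, 273, 327 and 301 in olanzapine, in the same order of animals. The ranges overlapped, and olanzapine 9 was the highest array. The log2 difference was 0.026 (SE 0.17, 95% interval -0.34 to 0.39, limma adjusted p = 0.982), and it was -0.029 after quantile normalization, which gives all arrays the same distribution. Within each array the log2 distance between the 2 Heg1 probe sets was 2.66 ± 0.12 in saline (SD, n = 4) and larger in olanzapine by 0.34 (exact two-sided permutation p = 0.0571, 0.171 after adjustment over 6 such pairs). With 4 arrays per group the smallest p of this test is 0.0286, which is 0.171 for 1 pair among 6, so a single pair could not pass after adjustment.

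Pecam1 encodes CD31, an adhesion molecule at the contacts between endothelial cells that leukocytes and platelets also carry. Its probe set had intensities of 921, 1105, 1014 and 1032 in saline 14, 15, 17 and 19, and of 1130, 1328, 1456 and 1477 in olanzapine 9, 14, 18 and 19. Every olanzapine array exceeded every saline array, olanzapine 9 by a narrow margin over saline 15. The means were 1018 ± 75.5 and 1348 ± 160 (SD, n = 4 each), with a log2 difference of 0.38 (SE 0.11, 95% interval 0.14 to 0.62, limma adjusted p = 0.392). With 1 array left out at a time the difference ran from 0.33 to 0.46.

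Vwf encodes von Willebrand factor, which endothelial cells store and release for platelet adhesion. Its values were 130, 272, 215 and 82.1 in saline and 250, 264, 209 and 194 in olanzapine. Saline 14 and saline 19 were low, while the other two saline arrays lay within or above the olanzapine range. The log2 difference was 0.36 (SE 0.24, 95% interval -0.15 to 0.88, limma adjusted p = 0.751). Without saline 19 it was 0.15 and without saline 15 it was 0.55.

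**Figure D1:**
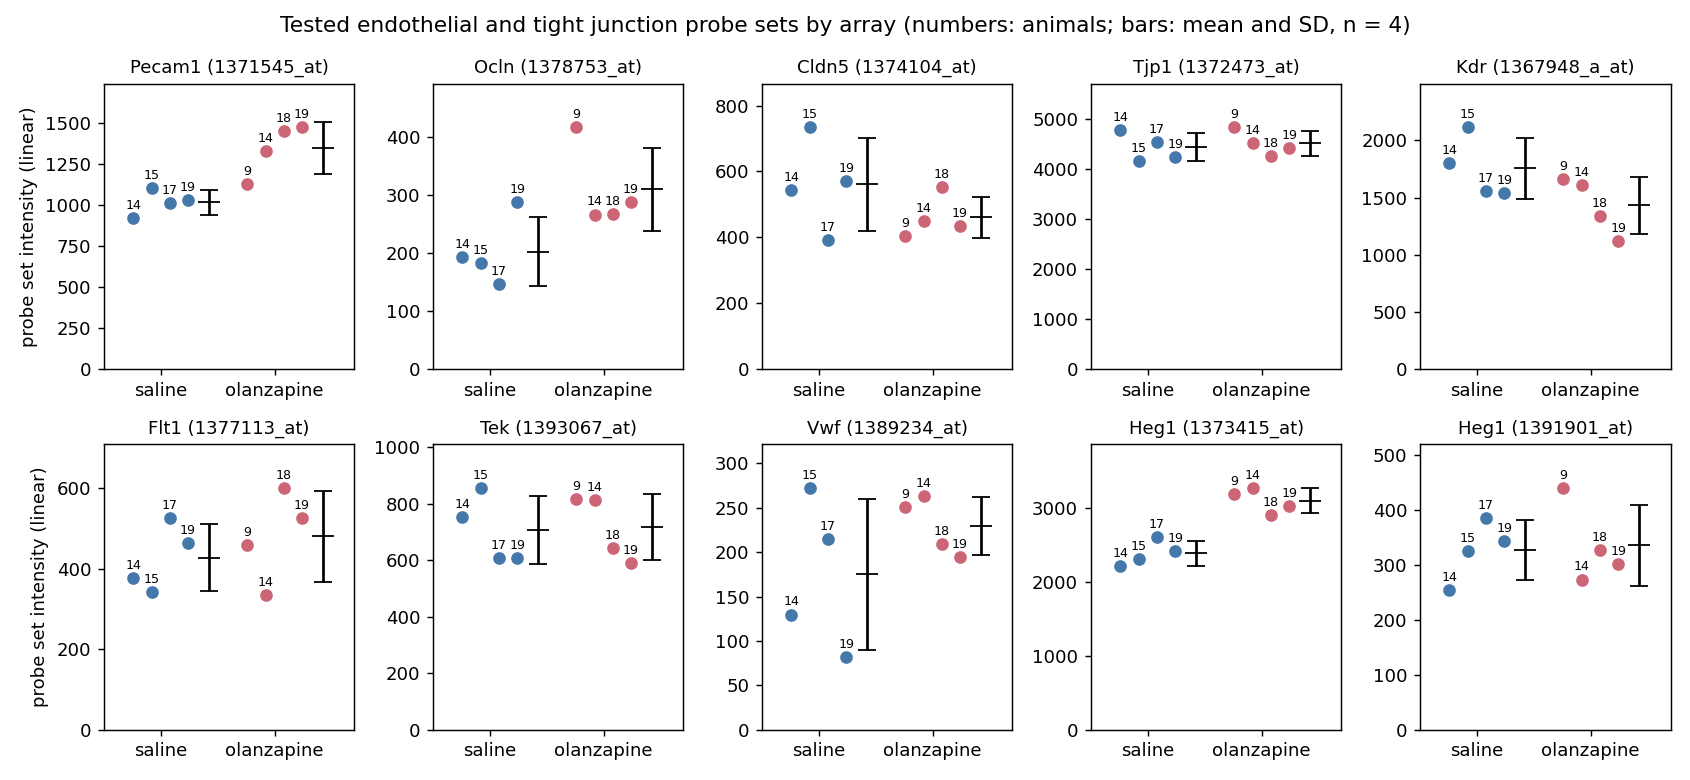
Intensity (linear, deposited scale) of the 10 tested probe sets on each array. Points are single animals with their numbers, and bars beside them give the mean and SD of 4 animals. Only in the panels of Pecam1 and of Heg1 1373415_at do all olanzapine points lie above all saline points.

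None of the tight junction genes Ocln, Cldn5 and Tjp1 passed the test. Ocln encodes occludin. Its tested probe set (1378753_at) was at 193, 182, 147 and 287 in saline 14, 15, 17 and 19, and at 417, 266, 268 and 287 in olanzapine 9, 14, 18 and 19. Saline 14, 15 and 17 lay below the olanzapine range, but saline 19 lay within it, and olanzapine 9 stood above all others. Saline averaged 202 ± 60.1 and olanzapine 310 ± 72.2 (SD, n = 4 each), with a log2 difference of 0.50 (SE 0.20, 95% interval 0.080 to 0.91, limma adjusted p = 0.518). It was 0.37 without olanzapine 9 and 0.64 without saline 19.

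The other Ocln probe set (1398281_at) was dim, with intensities of 73.5, 124, 58.1 and 81.9 in saline and 68.3, 62.4, 43.3 and 77.2 in olanzapine. Its log2 difference of -0.22 (SE 0.21, limma adjusted p = 0.883, fitted without the filter on dim probe sets) had the opposite sign. The within-array log2 distance between the 2 Ocln probe sets was larger in olanzapine by 0.71 (exact two-sided permutation p = 0.0286, the smallest that 70 assignments can give, and 0.171 after adjustment over the 6 pairs).

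Cldn5 encodes claudin-5, the dominant claudin of the blood-brain barrier. Its values were 543, 734, 393 and 571 in saline and 404, 449, 551 and 435 in olanzapine. The olanzapine range lay inside the saline range, which ran from saline 17 at the bottom to saline 15 at the top. The log2 difference was -0.23 (SE 0.17, 95% interval -0.59 to 0.12, limma adjusted p = 0.771). It was -0.10 without saline 15 and -0.37 without saline 17.

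Tjp1 gave the narrowest interval of the set. Its bright probe set (1372473_at) was at 4782, 4166, 4540 and 4250 in saline and 4839, 4522, 4268 and 4421 in olanzapine, and the groups overlapped over almost their whole range. The means were 4435 ± 282 and 4513 ± 242 (SD, n = 4 each). The log2 difference was 0.025 (SE 0.083, limma adjusted p = 0.957), and its 95% interval ran from -0.15 to 0.20, or from 0.900-fold to 1.15-fold. This probe set was the only member among the brightest 5% of tested probe sets, which had a median log2 difference of -0.15, or of 0.00032 once quantiles were matched. Tjp1 itself differed by 0.11 after quantile normalization and by -0.027 after median centring, so its sign depends on the scaling.

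The receptor genes showed no difference past the test. Kdr encodes VEGF receptor 2, the main signalling receptor for vascular endothelial growth factor A. Its brighter probe set (1367948_a_at) was at 1803, 2117, 1560 and 1543 in saline 14, 15, 17 and 19, and at 1662, 1606, 1340 and 1118 in olanzapine 9, 14, 18 and 19. Saline 14 and 15 were the highest arrays and olanzapine 18 and 19 the lowest, with overlap between them. Saline averaged 1756 ± 268 and olanzapine 1432 ± 252 (SD, n = 4 each), a log2 difference of -0.29 (SE 0.14, 95% interval -0.58 to 0.0027, limma adjusted p = 0.605). With 1 array left out it ran from -0.36 to -0.18, the latter without olanzapine 19.

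Flt1 encodes VEGF receptor 1, which binds the same ligand and whose soluble form holds it back. The tested probe set (1377113_at) was at 378, 341, 526 and 463 in saline and 460, 335, 601 and 526 in olanzapine. The ranges overlapped broadly, and olanzapine 18 was the highest array. The log2 difference was 0.14 (SE 0.18, 95% interval -0.23 to 0.51, limma adjusted p = 0.876). It ran from 0.035 without olanzapine 18 to 0.28 without olanzapine 14.

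Tek encodes TIE2, the receptor of the angiopoietins. Its values were 753, 856, 608 and 607 in saline and 818, 814, 642 and 591 in olanzapine. In each group 2 arrays were high and 2 low, and the group means of 706 ± 121 and 716 ± 117 (SD, n = 4 each) were closer than the animals within a group. The log2 difference was 0.020 (SE 0.15, 95% interval -0.29 to 0.33, limma adjusted p = 0.984), and it turned to -0.010 after quantile normalization.

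Dim probe sets made up the rest: 2 of Flt1, 1 each of Tjp1 and Kdr, and the Ocln probe set given above. Their intensities ran from 9.38 to 199.7 over all arrays. All 5 had log2 differences below 0, from -0.51 for Kdr (1397868_at) to -0.071 for Tjp1 (1395337_at), and the smallest limma adjusted p among them was 0.826 in the fit without a filter. For Flt1, Ocln and Tjp1 the dim probe sets thus had the opposite sign to the tested one, and for Kdr the same sign. Over the 6 within-gene pairs the exact permutation p-values ran from 0.0286 to 0.657 before adjustment, and 5 of the pairs hold a probe set that was too dim to be tested.

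**Figure D2:**
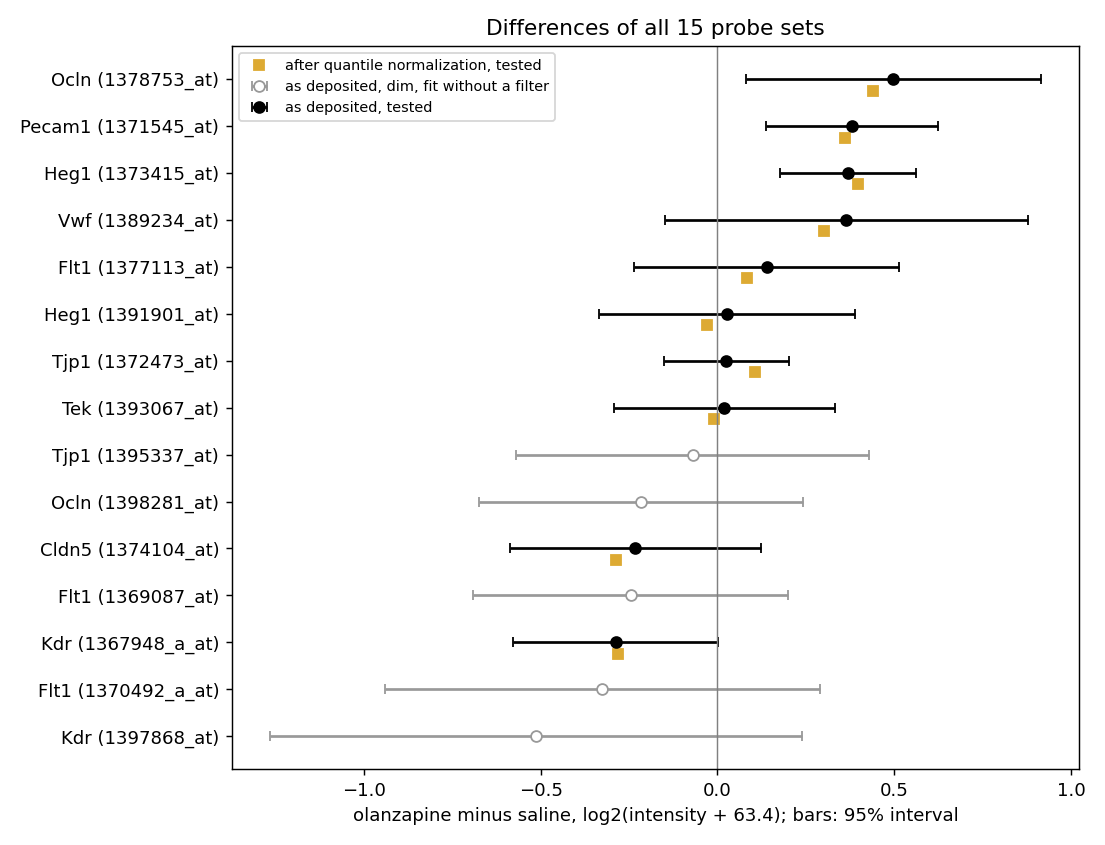
Olanzapine minus saline on the log2(intensity + 63.4) scale for all 15 probe sets, with 95% intervals from limma. Filled black points were tested, open grey points were too dim and come from the fit without a filter, and yellow squares are the tested probe sets after quantile normalization. Intervals lie above 0 for Ocln 1378753_at, Pecam1 and Heg1 1373415_at, and all 5 dim probe sets lie below 0.

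Pecam1 and Kdr had differences of opposite sign. The pair was chosen after its values were seen and was therefore not tested. The log2 distance of Pecam1 over Kdr within an array was -0.92, -0.90, -0.59 and -0.55 in saline 14, 15, 17 and 19, and -0.53, -0.26, 0.11 and 0.38 in olanzapine 9, 14, 18 and 19. The groups did not overlap, although olanzapine 9 lay close to saline 19. A larger distance in olanzapine follows from the opposite signs of the 2 genes, so these values are a description only. The mean was -0.74 ± 0.20 in saline and -0.074 ± 0.40 in olanzapine (SD, n = 4 each), a difference of 0.67, which was 0.64 after quantile normalization.

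Across the 10 tested probe sets, 8 had log2 differences above 0 and 2 below, where 56% of all tested probe sets lay above 0. The median was 0.083, against 0.027 over all tested probe sets. Without saline 17 it was 0.17 and without olanzapine 14 it was 0.19. After quantile normalization 6 of the 10 lay above 0. The mean deviation of the 10 probe sets from their 8-array means was -0.13, 0.048, -0.077 and -0.099 in saline 14, 15, 17 and 19, and 0.16, 0.041, 0.068 and -0.012 in olanzapine 9, 14, 18 and 19. Saline 15 was the highest array for 4 of the 10 probe sets and olanzapine 9 for 3.

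Markers of the meninges and of fibroblasts, which lie in the coverings of the brain and along its larger vessels, were read beside these genes. Of 14 tested genes of that list, all 17 being on the array, 12 were higher and 2 lower in olanzapine, with a median log2 difference of 0.49 and 0 past the adjusted test. Their summed intensity was 9703 to 10156 in saline and 9341 to 17766 in olanzapine, with none at 0. Igf2 differed by 1.14 (SE 0.26, limma adjusted p = 0.317), Col1a1 by 0.57 (SE 0.14), Ogn by 0.94 (SE 0.25), Col1a2 by 0.73 (SE 0.25) and Ptgds by 0.80 (SE 0.28). Without olanzapine 9 Col1a2 and Ptgds each differed by 0.45, and the median of the list was 0.38. With 1 array left out Igf2 ran from 0.87 to 1.26, Ogn from 0.71 to 1.17 and Col1a1 from 0.48 to 0.63. Olanzapine 9 was the highest array for this list, with a mean deviation of 0.69 against 0.24, 0.098 and -0.072 in the other olanzapine arrays. Without olanzapine 9, Heg1 1373415_at differed by 0.35 and Pecam1 by 0.46 and Ocln by 0.37. The part of these cells in the members' differences was not tested.

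Pecam1 is also carried by leukocytes. Of 11 tested microglia and leukocyte genes, of 16 on the array, 9 were higher and 2 lower (7 higher after quantile normalization), with a median of 0.23 and 0 past the adjusted test. Their summed intensity was 4395 to 4936 in saline and 4561 to 5901 in olanzapine, with none at 0. Cd74 differed by 0.46 (SE 0.20, limma adjusted p = 0.549), Lyz2 by 0.25 (SE 0.12) and S100a8 by 0.65 (SE 0.38). Without olanzapine 9 Cd74 differed by 0.29 and Lyz2 by 0.16, and without olanzapine 18 S100a8 differed by 0.21. The 2 lower genes were Tyrobp at -0.21 (SE 0.27) and P2ry12 at -0.12 (SE 0.13). Csf1r differed by 0.28, Aif1 by 0.23, C1qa by 0.015 and C1qc by 0.020. Of the dim genes, in the fit without a filter, Cx3cr1 differed by -0.68 (SE 0.20) and S100a9 by 0.77 (SE 0.52). Itgam, C1qb and Cd68, also dim, differed by 0.024, -0.0096 and -0.0074. The part of these cells in the Pecam1 difference was not tested. Blood left in the vessels was followed by haemoglobin: Hbb, by a probe set that may also match other beta-globin genes, was at 3341 ± 1151 in saline and 3172 ± 852 in olanzapine (SD, n = 4 each), and the red cell gene Alas2 differed by 0.086 (SE 0.26). These were the only 2 of 7 blood and platelet genes on the array that were tested, and the list's summed intensity was 2327 to 4951 in saline and 2390 to 4442 in olanzapine. Only 1 of 5 choroid plexus genes, Kcnj13, was tested, at 0.29 (SE 0.26), which was 0.072 without saline 14. The others were dim, and in the fit without a filter Ttr differed by -0.35 (SE 0.30) and Kl by -0.24 (SE 0.28). Folr1 differed there by -0.39 (SE 0.16) and Aqp1 by 0.068 (SE 0.31).

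**Figure D3:**
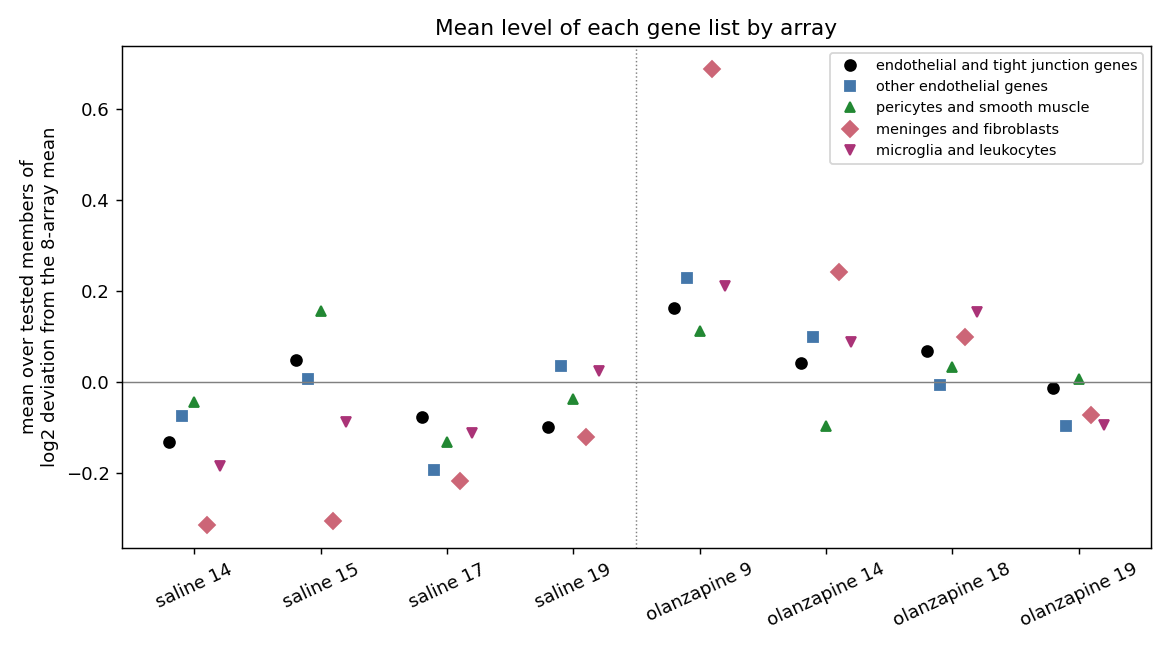
Mean log2 deviation from the 8-array mean, by array, for the 10 tested endothelial and tight junction probe sets and for 4 marker lists. Meningeal and fibroblast markers stand highest on olanzapine 9, at 0.69, where the endothelial set is also at its highest, 0.16, and the endothelial values of the 2 groups overlap.

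Other genes of the vessel wall were read from lists in which each gene stood by its brightest probe set. Of 27 further endothelial genes on the array 22 were tested. Of these, 15 were higher and 7 lower (12 higher after quantile normalization), with a median log2 difference of 0.060, and 0 passed the adjusted test. Sox17, an endothelial transcription factor gene, was at 172, 212, 199.7 and 258 in saline and 307, 351, 317 and 361 in olanzapine. Its olanzapine arrays all lay above its saline arrays, which held for 1 of the 22 genes and for 2.4% of all tested probe sets. The log2 difference was 0.54 (SE 0.16, limma adjusted p = 0.374). Thbd, the gene of the anticoagulant receptor thrombomodulin, was at 211, 245, 184 and 245 in saline and 815, 428, 382 and 219 in olanzapine. Its difference of 0.77 (SE 0.26) was 0.48 without olanzapine 9. Klf4, a transcription factor gene that responds to blood flow, differed by 0.37 (SE 0.26) and by 0.065 without saline 17. The 7 lower genes were Fli1 at -0.16, Ly6e and Ets1 at -0.12, Esam at -0.098, Emcn at -0.081, Egfl7 at -0.055 and Id3 at -0.019. Of the dim genes, in the fit without a filter, Clec14a differed by -0.50 (SE 0.27) and Icam2 by -0.42 (SE 0.28). Plvap differed there by 0.18, Eng by 0.10 and Nos3 by 0.014.

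Basement membrane genes, whose products underlie endothelium, had 9 of 14 tested members higher and 5 lower, with a median of 0.27 and 0 past the adjusted test. In 3 of the 14 the olanzapine arrays all lay above the saline arrays, where 2.4% of all tested probe sets did so. In 0 of the 14 they all lay below, against 2.07%. Itgb1, the integrin beta-1 gene, was at 639 ± 121 in saline and 872 ± 71.5 in olanzapine (SD, n = 4 each), a log2 difference of 0.43 (SE 0.14, limma adjusted p = 0.439). Nid1, which encodes the linker protein nidogen-1, differed by 0.38 (SE 0.16; 0.23 without olanzapine 9), and Col4a2, a chain of type IV collagen, by 0.34 (SE 0.13). Without olanzapine 9 the median of the list was 0.16. The 5 lower genes were Lamb1 at -0.24 (SE 0.15), Lama4 at -0.20, Itga6 at -0.060, and Lama2 and Agrn, each at -0.045. Of the dim genes, in the fit without a filter, Lama5 differed by -0.85 (SE 0.24), Hspg2 by -0.50 (SE 0.27) and Itga1 by 0.41 (SE 0.23). The olanzapine arrays of Lama5 all lay below its saline arrays, but as a dim gene it is outside the counts above. Meninges and fibroblasts also make several of these proteins.

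The ligands, the transporters and the remaining junction genes had list medians near 0, with single genes on both sides of it. Of 14 tested growth factor ligands and co-receptors 7 were higher and 7 lower, with a median of -0.0010. Vegfa, which encodes the ligand of Kdr and Flt1, was at 1644 ± 96.7 in saline and 1683 ± 172 in olanzapine (SD, n = 4 each), a log2 difference of 0.029 (SE 0.10, limma adjusted p = 0.963) that was -0.023 after median centring. Vegfb, a ligand of Flt1, differed by -0.35 (SE 0.17), Notch1 by -0.46 (SE 0.24) and the co-receptor gene Nrp2 by 0.28 (SE 0.19). With 1 array left out the values nearest to 0 were -0.23 for Vegfb without saline 19, -0.25 for Notch1 without olanzapine 18 and 0.12 for Nrp2 without saline 15. Angpt1, a ligand of TIE2, was dim, at 47.9 ± 44.0 and 32.5 ± 13.3. Of 18 tested transporters of the blood-brain barrier 9 were higher and 9 lower, with a median of 0.0053. The glucose transporter gene Slc2a1 differed by 0.091 (SE 0.11) and the drug efflux pump gene Abcb1a by -0.10 (SE 0.19). Mfsd2a, a lipid transporter gene, differed by 0.46 (SE 0.25; 0.24 without saline 15), the transferrin receptor gene Tfrc by -0.092 (SE 0.089) and the organic anion transporter gene Slco1a4 by 0.12 (SE 0.13). No gene of these lists passed the adjusted test.

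Of 22 tested junction partners 12 were higher and 10 lower, with a median of 0.015, and 0 passed the adjusted test. Ctnnb1, the gene of beta-catenin, which binds cadherins, differed by -0.30 (SE 0.088), but by 0.023 after quantile normalization. Cdh2, which encodes N-cadherin of neurons and pericyte contacts, differed by -0.23 (SE 0.079) and by -0.13 when quantiles were matched, and Cgnl1, a tight junction adaptor gene, by 0.26 (SE 0.14). As deposited, the olanzapine arrays of Cdh2 all lay below its saline arrays. This held for 1 of the 22 genes and for 2.07% of all tested probe sets. Of 17 pericyte and smooth muscle markers on the array 8 were tested. Of these, 5 were higher and 3 lower, with a median of 0.13 that was -0.017 without olanzapine 9. Among them Tpm2 differed by -0.63 (SE 0.26), Abcc9 by 0.33 (SE 0.16) and Cspg4 by 0.50 (SE 0.28). Tpm2 differed by -0.31 without olanzapine 9 and Cspg4 by 0.19 without saline 19. Pdgfrb differed by -0.21 and Higd1b by -0.27, against Myh11 by 0.23, Vtn by 0.20 and Myl9 by 0.060. The remaining genes of the list were dim and were read in the fit without a filter. There Anpep differed by -0.75 (SE 0.29), Mcam by -0.33, Rgs5 by -0.21, Des by -0.14 and Kcnj8 by -0.029. Cnn1 differed there by 0.34, Notch3 by 0.33, Acta2 by 0.18 and Tagln by 0.057.

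Astrocytes, whose end feet wrap the capillaries, had 9 of 12 tested markers lower and 3 higher, with a median of -0.15 as deposited and -0.054 after quantile normalization. Glul differed by -0.39 (SE 0.086), Slc1a3 by -0.30 (SE 0.083) and Gja1 by -0.22 (SE 0.080), and after quantile normalization these were -0.18, -0.11 and 0.080. These are bright probe sets, and 0 passed the adjusted test. As deposited, the olanzapine arrays of Glul and Slc1a3, 2 of the 12, all lay below the saline arrays, where 2.07% of all tested probe sets did so. Of 8 tested cortical neuron markers 3 were higher and 5 lower (5 higher after quantile normalization), the median being -0.028. Snap25 differed by -0.35 (SE 0.080; -0.042 after quantile normalization), Nrgn by -0.23 (SE 0.14; -0.077 without saline 15) and Neurod6 by 0.26 (SE 0.13). As deposited, Snap25 was 1 of the 8 with all olanzapine arrays below all saline arrays, the only such gene of the list.

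**Figure D4:**
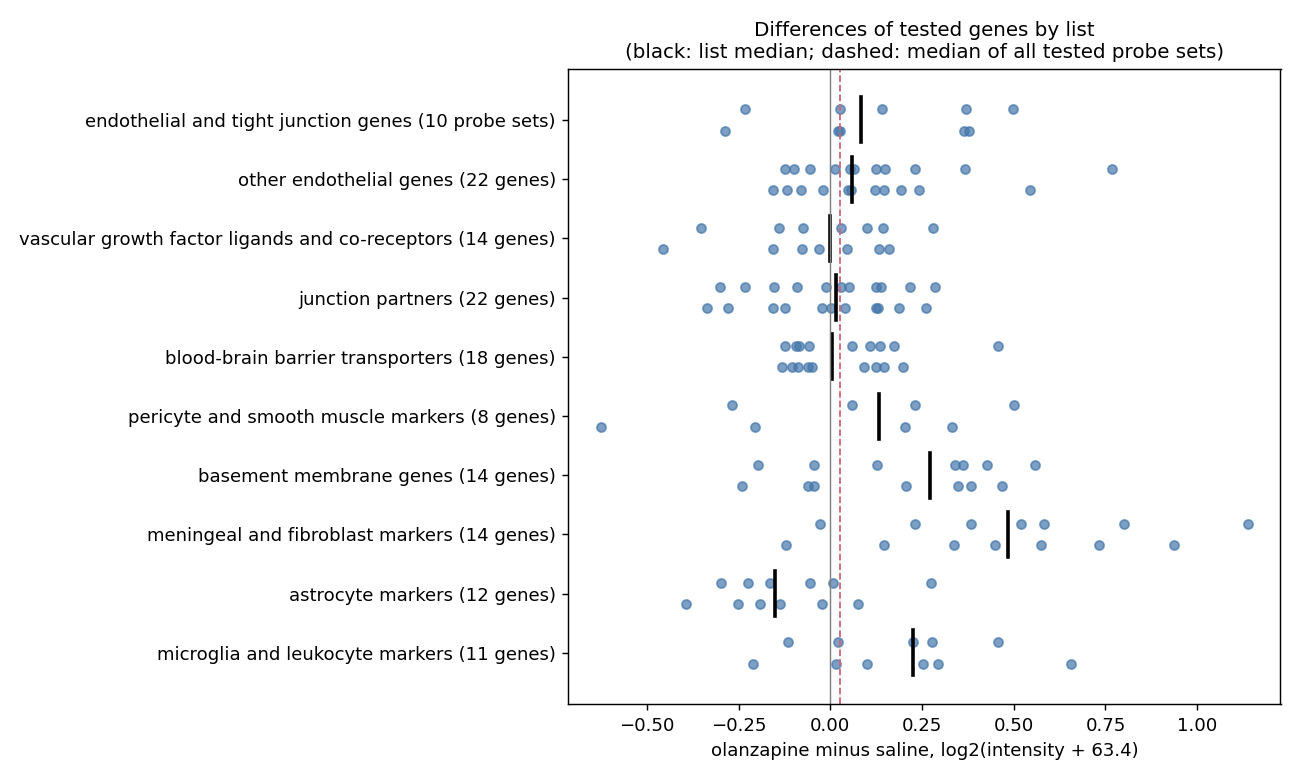
Olanzapine minus saline on the log2(intensity + 63.4) scale for each tested gene, by list. Each point is 1 gene (1 probe set in the top row), the black line is the list's median, and the dashed line is the median of all tested probe sets, 0.027. Medians run from -0.15 for astrocyte markers to 0.49 for meningeal and fibroblast markers, with the endothelial and tight junction set at 0.083.

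The genes whose profile over the 8 arrays lay nearest to the mean of the 9 measured members, after each group was centred on its own mean, were Rxrb, Pebp1, Susd4, Fam89b and Id2. Likeness was the mean absolute difference between profiles in units of their SD, which was 0.088 for Rxrb and 0.20 for Id2 among 10114 genes. None of these 5 belongs to the vascular lists. Since each group was centred, likeness describes the scatter within groups and not the difference between them. Id2 differed by -0.29 (SE 0.075, limma adjusted p = 0.329; -0.13 after quantile normalization). Its olanzapine arrays all lay below its saline arrays, as for 2.07% of all tested probe sets. Rxrb differed by -0.043, Pebp1 by -0.14, Susd4 by -0.029 and Fam89b by 0.057.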

How the data were processed

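The deposited table holds linear probe set intensities of 8 arrays, as the authors deposited them, 31099 probe sets with 57 controls. The mean after trimming 2% at each end was 500.1 to 500.2 on every array, which shows a common scaling of the deposited intensities. The sources used here give no software, background correction or detection calls. Names came from the platform's 2016 annotation. List genes were also matched by Entrez identifier to RefSeq symbols (GRCr8). Of 31042 probe sets, 20826 had 1 symbol, 436 several and 9780 none.

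The log2 of each intensity plus 63.4, the 25th percentile of the table, was used. Only the 18625 probe sets with a mean above the 40th percentile were tested. Olanzapine was compared with saline in limma 3.58.1 under R 4.3.3 (lmFit, eBayes with trend, two-sided, no covariates, Benjamini-Hochberg over all tested probe sets). In simulated data with 200 changed probe sets among 18625, 38.8% of 1.5-fold and 85% of 2-fold changes were called. The changes also included 3-fold and 4-fold ones, and 6.52% of the calls were false. Its noise was normal and independent between arrays, without the differences between arrays that real data hold. Changes smaller than 1.5-fold, such as the 1.41-fold of Ocln, were not simulated. Alternatives were other added values, filters, scalings, variance models, the animal number as a block and each array left out.

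The members, the lists and the tests were chosen with earlier results of these data known. All probe sets of the members are named, and from each other list the 3 tested genes with the smallest p, with Vegfa, Angpt1, Slc2a1, Abcb1a, Col1a2 and Ptgds whatever their p, and the 5 genes of nearest profile. For some lists further genes, tested or dim, are given beside these.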

Additional observations from a re-analysis of the deposited data

Results flagged for a closer look

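In each group of 4, an array was marked when its gap to its nearest neighbour took up most of the group's range. The gap's share of the range was 0.834 for Ocln (1378753_at) in olanzapine 9. Beyond the members it was 0.928 for Vegfa in olanzapine 18, 0.927 for Ctnnb1, 0.920 for Cspg4 and 0.830 for Gja1 in saline 19, 0.889 for Tpm2 and 0.898 for Igf2 in olanzapine 9, 0.978 for Itgb1 in saline 17, and 0.910 for Rxrb and 0.839 for Fam89b in saline 15. There were 10 such marks in 118 groups, and chance gives about 1 in 20. Without olanzapine 9, Ocln differed by 0.37 in place of 0.50, and without saline 17 Itgb1 differed by 0.29 in place of 0.43.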

How the results depend on the processing

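Under each of the settings that kept all 8 arrays, 0 member probe sets passed the adjusted test, and this held with each array left out as well. Heg1 1373415_at, Pecam1, Ocln 1378753_at, Kdr and Cldn5 kept their signs in all of these. The members' median ran from 0.058 without olanzapine 18 to 0.19 without olanzapine 14, and was 0.020 with all 15 probe sets, 0.021 with the animal number as a replicate block, 0.026 with the stricter filter, 0.031 after median centring and 0.14 with 1 probe set per gene. The block fit takes its group difference from numbers 14 and 19 alone, the only ones present in both groups. Over the array 0 to 107 probe sets passed with 1 array left out, 107 without saline 19 and 1 without olanzapine 9, and none of these was a member. At an unadjusted p under 0.05, 1549 passed with all arrays. Without saline 19 the smallest adjusted p among the members was 0.112, for Heg1 1373415_at, and Ctnnb1, Glul, Slc1a3 and Snap25 passed.

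Signs turned as follows, the cause being not tested. After quantile normalization Tek differed by -0.010, Heg1 1391901_at by -0.029, Ctnnb1 by 0.023, Gja1 by 0.080 and Pebp1 by 0.0042. After median centring Tjp1 differed by -0.027, Tek by -0.032, Heg1 1391901_at by -0.026 and Vegfa by -0.023. After cyclic loess Tek differed by -0.021, Heg1 1391901_at by -0.036, Gja1 by 0.0062 and Hbb by 0.011. With array weights Hbb differed by 0.097 and Susd4 by 0.012. With 1 array left out Tjp1 ran from -0.0082 to 0.062, Tek from -0.043 to 0.11, Heg1 1391901_at from -0.092 to 0.10, Vegfa from -0.0026 to 0.10, Abcb1a from -0.27 to 0.035, Hbb from -0.27 to 0.16, Alas2 from -0.073 to 0.30, Rxrb from -0.089 to 0.040, Pebp1 from -0.29 to 0.14, Susd4 from -0.11 to 0.094 and Fam89b from -0.065 to 0.19.

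The groups share the animal numbers 14 and 19. The labels describe random assignment and name no pairing, and the deviations of same-numbered arrays correlated at 0.075 and 0.11 over probe sets. With the animal number as a replicate block, the group difference rests on the 2 shared numbers alone, since every other number occurs in 1 group only. In that fit 6 probe sets passed and 0 members. There Ocln 1378753_at differed by 0.18 in place of 0.50, Vwf by 0.79 in place of 0.36 and Flt1 1377113_at by 0.0072 in place of 0.14. Signs turned for Tjp1 at -0.012, Heg1 1391901_at at -0.036, Slco1a4 at -0.059, Alas2 at -0.29 and Susd4 at 0.013.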
